A study of Mus musculus with 6 samples.

Results

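The non-fibrillar collagens examined here are the beaded-filament collagen VI (Col6a1, Col6a2 and Col6a3), the short-chain collagen VIII (Col8a1 and Col8a2) and the fibril-associated collagens XII, XIV and XVI (Col12a1, Col14a1 and Col16a1). They were chosen by gene symbol, and all 8 were found among the 38293 genes of the count table. RNA-seq was performed on heart tissue of adult male mice 14 days after MI, made by permanent occlusion of the LAD artery, with 3 WT and 3 Zeb2 cKO libraries on the C57BL/6J (backcrossed) background. The labels name the border region of the infarct as the tissue, whereas the study's methods name the remote zone. The WT mice are Zeb2 fl/fl animals by those methods, so floxed Zeb2 alleles were shared by both groups, and the Zeb2 cKO mice also carried a Cre recombinase driven by the Myh6 promoter, which acts in cardiomyocytes. The libraries are called WT 1 to WT 3 and Zeb2 cKO 1 to Zeb2 cKO 3 after their labels.

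Collagens VI, VIII, XII, XIV and XVI do not build the thick fibrils of a scar themselves. Collagen VI is a trimer of different chains that assembles into beaded microfilaments around cells and links them to the matrix. Collagen VIII forms short, network-like assemblies and is known from vessel walls and from the basement membrane of the corneal endothelium. Collagens XII, XIV and XVI belong to the fibril-associated collagens with interrupted helices, of which XII and XIV decorate the surface of collagen I fibrils. In the heart these genes are mainly transcribed by fibroblasts and, in part, by cells of the vessel wall, and hardly by the cardiomyocytes in which Zeb2 was deleted. In tissue RNA, fewer cells of a type and less RNA per cell cannot be told apart.

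ZEB2 is a zinc finger protein known to bind E-boxes with the letters CACCTG, so the promoters of the members were read for this motif. RefSeq starts on GRCm38.p6 were given for 6 of the 8 genes, Col12a1 and Col14a1 being the others, and the 250 bases before each start were searched on both strands for CACCTG, for the GC box GGGCGG and for the TATA box TATAAA. The E-box CACCTG was present in 2 of the 6 genes, Col8a1 and Col16a1, against 17.2% of all 32851 promoter windows of this length. GGGCGG was present in 4 of the 6 genes (32.7% of all windows) and TATAAA in 0 of them (12.4% of all windows). The 6 genes had 7 starts, since Col6a2 had 2, so these counts are per gene whereas the shares are per window. The windows of the collagen VIII chains and of Col16a1 are printed because they hold the CACCTG matches beside the member with the largest genotype difference, Col8a2, which has none. Each is written 5′ to 3′ on the strand of the gene and ends at the base before the start, and capitals mark CACCTG.
Col8a1 (chr16:57754738-57754987, minus strand): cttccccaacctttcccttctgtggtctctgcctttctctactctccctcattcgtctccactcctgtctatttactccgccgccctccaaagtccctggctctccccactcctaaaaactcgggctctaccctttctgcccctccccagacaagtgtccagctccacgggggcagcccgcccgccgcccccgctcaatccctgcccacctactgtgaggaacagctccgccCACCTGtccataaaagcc
Col16a1 (chr4:130047590-130047839, plus strand): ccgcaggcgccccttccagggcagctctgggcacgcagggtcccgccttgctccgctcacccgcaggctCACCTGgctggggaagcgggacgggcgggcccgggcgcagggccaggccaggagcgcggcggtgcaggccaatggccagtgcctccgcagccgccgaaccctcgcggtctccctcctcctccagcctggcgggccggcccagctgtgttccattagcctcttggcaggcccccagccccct
Col8a2 (chr4:126286544-126286793, plus strand): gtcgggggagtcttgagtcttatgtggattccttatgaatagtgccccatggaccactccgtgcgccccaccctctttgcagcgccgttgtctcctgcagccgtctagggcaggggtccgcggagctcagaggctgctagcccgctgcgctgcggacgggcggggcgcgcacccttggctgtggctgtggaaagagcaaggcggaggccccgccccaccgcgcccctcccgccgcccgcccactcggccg
The match of Col8a1 begins 18 bases before the start and shares 1 base with a GC box, and that of Col16a1 begins 181 bases before the start. Col8a1 and Col8a2 each held 4 GC boxes and Col16a1 held 1. A match of letters is a description of the sequence and does not show that a factor binds there.

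Before the members are compared, the libraries need a description. Total counts were between 37288174 and 51136331 per library, of which 14301225 to 19024394 lay outside the mitochondrially encoded genes. WT 2 stood apart from the other 5 libraries. Of the 14746 genes kept for testing after low counts were filtered out, 35.2% had their highest level in WT 2 and 34.6% their lowest. Zeb2 itself, counted in all cells of the tissue, was at 61.3, 116 and 71.9 CPM in WT 1, WT 2 and WT 3 against 59.6, 72.6 and 66.5 CPM in Zeb2 cKO 1, 2 and 3, a log2 ratio of the groups of -0.33 ± 0.25 (SE, edgeR adjusted p = 0.957). CPM are read counts scaled to the TMM-normalised library size, and SE is the standard error of the fit. This difference was within the spread of the libraries, and without WT 2 it was -0.0059. The cardiomyocyte markers were present in every library, with a summed level of 33710 to 67120 CPM. The main results below are given with and without WT 2.

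With all 6 libraries, each of the 8 collagens had a lower mean in Zeb2 cKO than in WT hearts, but no difference passed the test and in each gene the libraries of the groups overlapped. The log2 fold changes ran from -0.24 for Col6a3 to -2.90 for Col8a2, with a median of -1.24 over the members against -0.007 over all genes tested. All 8 members were under -0.2, the cutoff of the study, which 22.6% of all genes tested were, and 0 were over 0.2 (16.0%). An adjusted p under 0.05 in edgeR's quasi-likelihood test was reached by 0 of the 8 members and by 0.00% of all genes, whether lower or higher. Without adjustment, 280 genes (1.90%) were under 0.05. DESeq2 called 0 members and 2 other genes. At an unadjusted p under 0.05 it had 2 members, Col8a1 and Col16a1, among 361 of the 14746 genes, and it gave no p-value for Col8a2. Of the members, Col8a2 alone was lower at an unadjusted p under 0.05 in edgeR, as were 0.861% of all genes, and 0 members were higher, against 1.04% of all genes. In 0 members did all libraries of one genotype lie outside those of the other, against 2.97% of all genes with Zeb2 cKO lower, 3.39% with it higher and 6.36% together.

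The picture changed when WT 2 was left out. Without it, 3 of the 8 members were under -0.2 (11.7% of 14966 genes tested), 0 were over 0.2 (14.1%), and the median of the members was -0.04, against 0.003 for all genes. At an unadjusted p under 0.05 there were then 0 members and 393 genes (2.63%, of which 1.08% of all genes were lower and 1.55% higher), and at an adjusted p under 0.05 again 0 members and 0.00% of all genes (edgeR). WT 2 held the highest level of all 8 members, where 35.2% of all genes tested had their highest level in that library. Zeb2 cKO 3 came next in 7 of the 8, a place it held in 20.7% of all genes, and Zeb2 cKO 1 was lowest in 6 of the 8, against 16.9% of all genes.

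**Figure D1:**
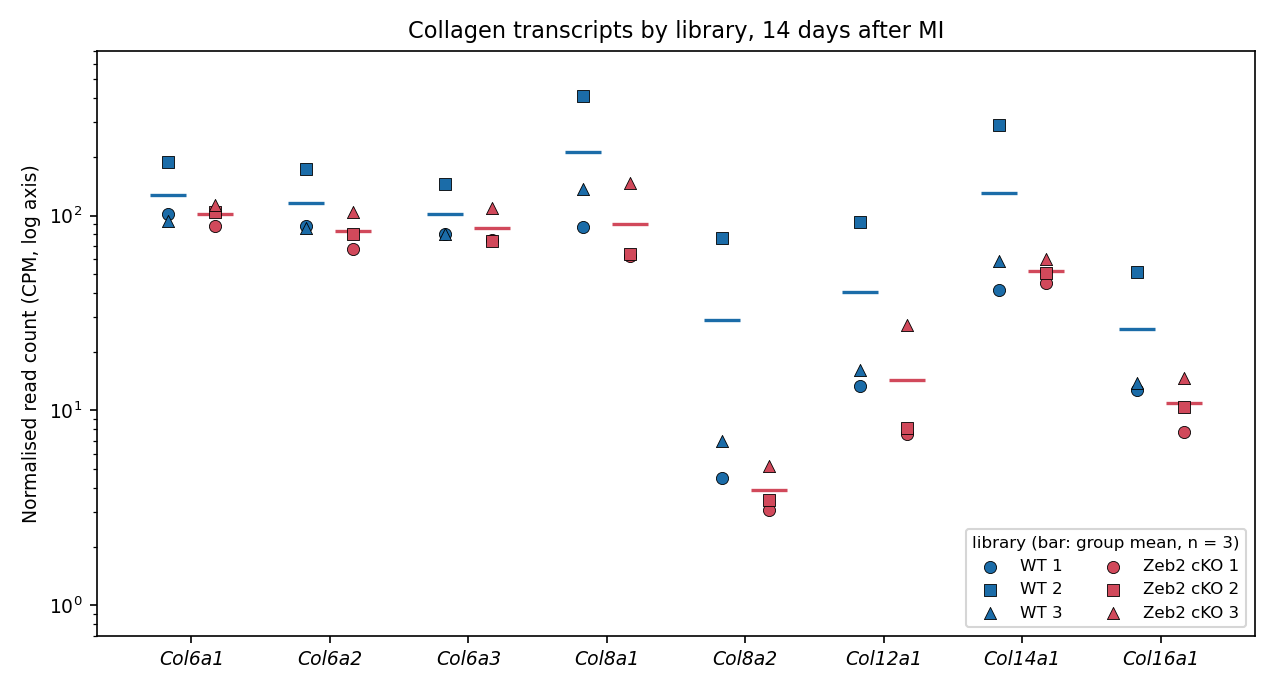
Normalised read counts (CPM, log axis) of the 8 collagens in each of the 6 libraries, with circles, squares and triangles for replicates 1, 2 and 3 and horizontal bars for the mean of each group (n = 3). The blue square, WT 2, is the highest point in all 8 genes, and the other WT points lie within or close to the range of the Zeb2 cKO points.

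With all 6 libraries, the collagen VI chains had the smallest differences of the 8 members, an order that did not hold without WT 2. Col6a1 (chromosome 10, 76708792 to 76726168, minus strand, GRCm38) encodes the alpha-1 chain of the trimer. It was at 102, 188 and 93.9 CPM in WT 1, WT 2 and WT 3 and at 88.3, 104 and 113 CPM in Zeb2 cKO 1, 2 and 3. Apart from WT 2, the WT libraries lay inside the range of the Zeb2 cKO libraries. The log2 fold change was -0.33 ± 0.28 (SE) with all libraries and 0.06 ± 0.13 (SE) without WT 2, so its direction rested on that library.

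Col6a2 (chromosome 10, 76595762 to 76623630, minus strand), which lies near Col6a1 and encodes the alpha-2 chain, was at 87.9, 173 and 86.2 CPM in the WT libraries, against 67.1, 80.6 and 103.7 CPM in the Zeb2 cKO libraries. Zeb2 cKO 3 lay above WT 1 and WT 3, and the other Zeb2 cKO libraries lay below all WT libraries. Its log2 fold change was -0.46 ± 0.31 (SE), and -0.05 ± 0.18 (SE) without WT 2.

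Col6a3 (chromosome 1, 90765923 to 90843971, minus strand) encodes the long alpha-3 chain, whose C-terminal fragment is released as endotrophin. It was at 80.1, 145 and 80.8 CPM in WT, against 74.98, 74.3 and 109.6 CPM in Zeb2 cKO hearts. As for Col6a2, only Zeb2 cKO 3 reached into the range of the WT libraries. Its log2 fold change was -0.24 ± 0.29 (SE) and turned to 0.10 ± 0.18 (SE) without WT 2. Against the mean of WT 1 and WT 3, WT 2 was 1.92-fold higher for Col6a1, 1.98-fold for Col6a2 and 1.81-fold for Col6a3.

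The proportions of the collagen VI chains in WT 2 were close to those in the other libraries. In counts per kilobase of annotated exon, the ratio of Col6a1 to Col6a3 lay between 3.18 and 3.54 in WT and between 2.82 and 3.83 in Zeb2 cKO libraries. For Col6a2 to Col6a3 it was 1.58, 1.71 and 1.53 in WT and 1.28, 1.56 and 1.36 in Zeb2 cKO hearts, and for Col6a1 to Col6a2 it was 2.07 to 2.21 and 2.07 to 2.50. The differences of the log2 ratios between the genotypes were -0.06, -0.20 and 0.14, with adjusted p of 0.8, 0.5 and 0.5 from exact permutation tests (two-sided, adjusted over 5 ratios). With 3 against 3 libraries the smallest unadjusted p is 0.1, so these tests could not pass 0.05. The absolute ratios depend on the length used, and with the longest transcript in place of all annotated exons that of Col6a1 to Col6a2 lay between 1.31 and 1.58.

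Of the collagen VIII chains, Col8a2 had the largest difference of the 8 members with all 6 libraries. That of Col8a1 was smaller than those of Col12a1, Col14a1 and Col16a1, an order that did not hold without WT 2. The log2 fold change of Col8a1 was then -0.30, against -0.02, 0.05 and -0.28 for Col12a1, Col14a1 and Col16a1. Col8a2 (chromosome 4, 126286793 to 126314330, plus strand) encodes the alpha-2 chain, which can form trimers of its own or with the alpha-1 chain. It was at 4.49, 76.2 and 6.95 CPM in WT 1, WT 2 and WT 3 and at 3.08, 3.48 and 5.17 CPM in Zeb2 cKO 1, 2 and 3. WT 2 exceeded the mean of WT 1 and WT 3 by 13.3-fold, more than in 99.9% of all genes tested. The Zeb2 cKO libraries were low, and Zeb2 cKO 3 alone lay above WT 1. The log2 fold change was -2.90 ± 1.07 (SE, edgeR adjusted p = 0.957), and without WT 2 it was -0.54 ± 0.27 (SE, edgeR adjusted p = 1.00). DESeq2 gave no p-value for Col8a2.

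Col8a1 (chromosome 16, 57624258 to 57754737, minus strand), the alpha-1 chain, was at 87.3, 412 and 137 CPM in WT, against 62.0, 63.4 and 147 CPM in Zeb2 cKO hearts. Zeb2 cKO 3 lay above WT 1 and WT 3, whereas Zeb2 cKO 1 and Zeb2 cKO 2 lay below all WT libraries. Its log2 fold change was -1.22 ± 0.63 (SE) with all libraries and -0.30 ± 0.39 (SE) without WT 2. Without Zeb2 cKO 3 it was -1.76, so this gene depended on a library of each group.

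The proportion of the collagen VIII chains differed more between libraries. Per kilobase, Col8a2 stood at 0.0897, 0.323 and 0.0886 of Col8a1 in WT 1, WT 2 and WT 3, and at 0.0867, 0.0957 and 0.0615 in the Zeb2 cKO libraries. WT 2 is the one library in which the ratio exceeded 0.1. The log2 ratio differed by -0.78 between the genotypes (adjusted p = 0.5, exact permutation test, two-sided), and by -0.16 without WT 2. In Zeb2 cKO 3, where Col8a1 was 2.34-fold above the mean of the other Zeb2 cKO libraries, Col8a2 was 1.58-fold above it, and the ratio was the lowest of the 6.

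**Figure D2:**
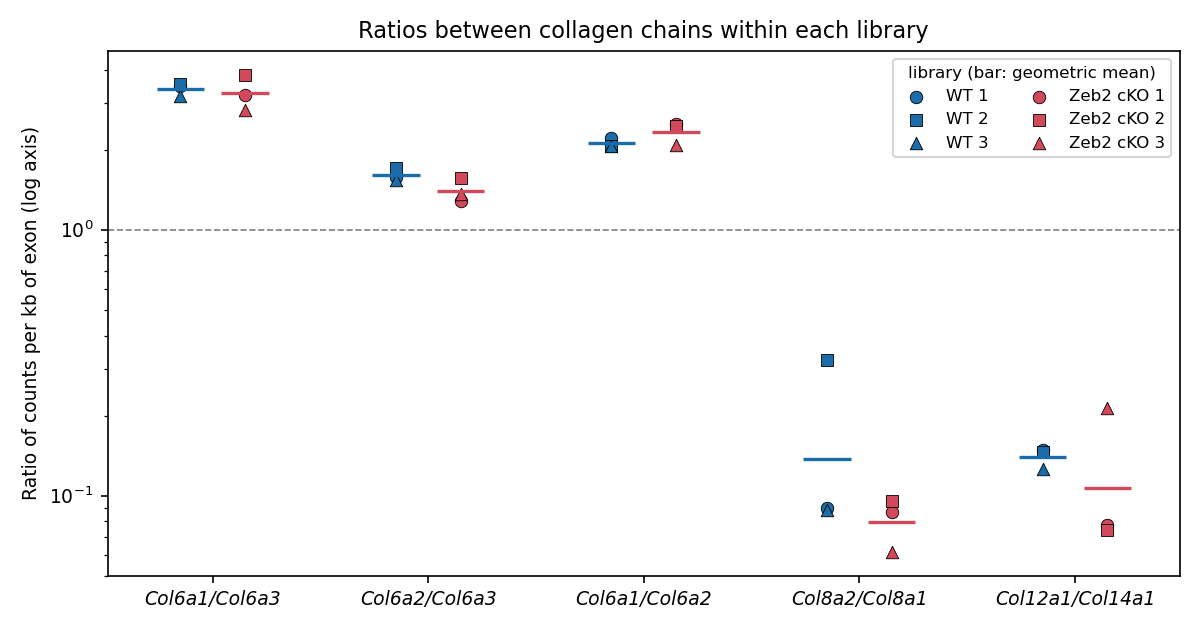
Ratios between collagen chains within each library, in counts per kilobase of annotated exon on a log axis, with a dashed line at equal levels and bars for the geometric mean of each group (n = 3). The collagen VI ratios lie close together in all libraries, Col8a2/Col8a1 is 0.323 in WT 2 against at most 0.0957 elsewhere, and Col12a1/Col14a1 is 0.213 in Zeb2 cKO 3 against at most 0.148 elsewhere.

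Of the fibril-associated collagens, Col12a1 (chromosome 9, 79598991 to 79718831, minus strand) encodes collagen XII, which lies on fibrils in tissues under tension. It was at 13.3, 92.9 and 16.0 CPM in the WT libraries, against 7.57, 8.16 and 27.5 CPM in the Zeb2 cKO libraries. WT 2 was 6.33-fold above the other WT libraries, and Zeb2 cKO 3 was 3.50-fold above the other Zeb2 cKO libraries, more than in 99.8% of all genes tested. The log2 fold change of -1.50 ± 0.87 (SE) was -0.02 ± 0.53 (SE) without WT 2 and -2.37 without Zeb2 cKO 3.

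Col14a1 (chromosome 15, 55307750 to 55520803, plus strand) encodes collagen XIV, known to limit the lateral growth of fibrils. Like Col12a1, it is overlapped by an antisense gene, and the strand setting of the counting was not given, so that reads of both strands may have been counted. Its levels were 41.3, 292 and 58.6 CPM in WT and 44.9, 50.5 and 59.6 CPM in Zeb2 cKO hearts. Outside WT 2, the 5 libraries lay between 41.3 and 59.6 CPM, with no separation by genotype. The log2 fold change was -1.34 ± 0.71 (SE), and 0.05 ± 0.18 (SE) without WT 2. Zeb2 cKO 3 was only 1.25-fold above the other Zeb2 cKO libraries here, in contrast to Col12a1.

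Per kilobase, the ratio of Col12a1 to Col14a1 was 0.148, 0.146 and 0.126 in WT 1, WT 2 and WT 3, whereas the Zeb2 cKO libraries spread from 0.0743 in Zeb2 cKO 2 and 0.0776 in Zeb2 cKO 1 to 0.213 in Zeb2 cKO 3. The Zeb2 cKO values thus lay on both sides of the WT values. The log2 ratio differed by -0.39 (adjusted p = 0.5, exact permutation test, two-sided), by -0.35 without WT 2, by -0.15 and -0.12 without Zeb2 cKO 1 and Zeb2 cKO 2, and by -0.88 without Zeb2 cKO 3.

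Col16a1 (chromosome 4, 130047840 to 130099283, plus strand) encodes collagen XVI, found in association with fibrillin microfibrils and thin fibrils. It was at 12.8, 51.5 and 13.9 CPM in WT, against 7.75, 10.4 and 14.7 CPM in Zeb2 cKO hearts. Zeb2 cKO 3 lay above WT 1 and WT 3, and the other Zeb2 cKO libraries below them. The log2 fold change was -1.25 ± 0.57 (SE), and -0.28 ± 0.24 (SE) without WT 2. Exact permutation tests on single members gave two-sided p from 0.2 (Col8a2) to 0.7 (Col6a1 and Col14a1) in 8 tests.

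Zeb2 cKO 3 was the library that made the groups overlap in most members. Without it, 6 of the 8 members, all but Col6a1 and Col14a1, were lower in both remaining Zeb2 cKO libraries than in any WT library, against 10.8% of all genes in that comparison. With any other library left out, this count was 0 or 1. The single member was Col8a2, without WT 1, where 12.1% of all genes did so. A library left out after its values were seen is no replicate check.

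**Figure D3:**
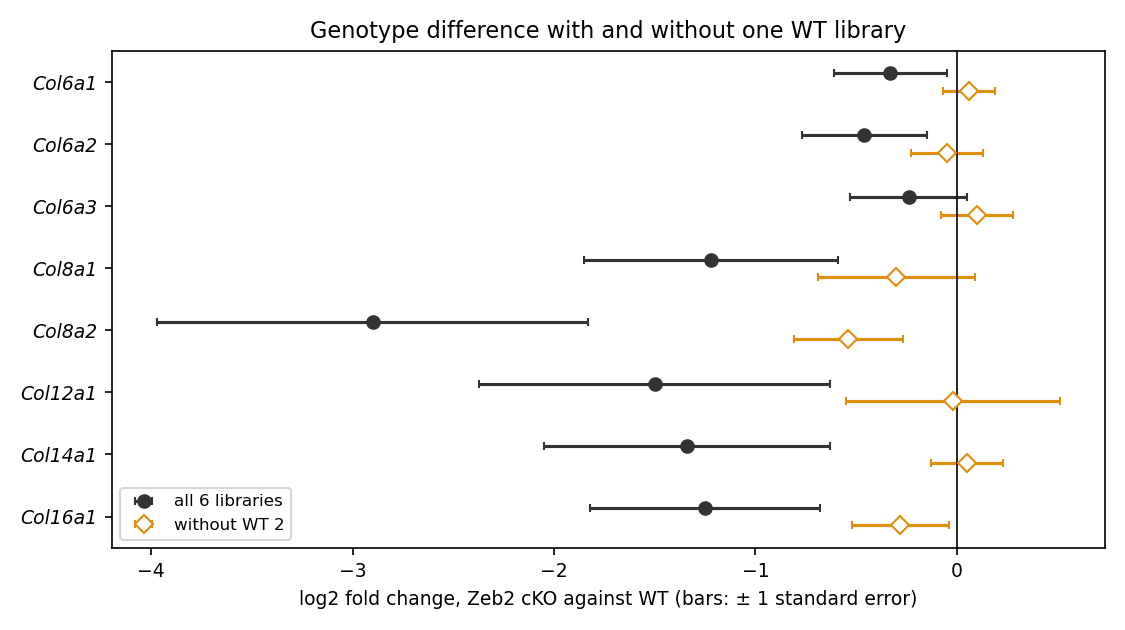
Log2 fold changes of the 8 collagens, Zeb2 cKO against WT, from edgeR, with bars for ± 1 standard error. Filled points use all 6 libraries and run from -2.90 to -0.24, and open points leave out WT 2 and run from -0.54 to 0.10.

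Levels between genes were compared in CPM per kilobase of annotated exon. In Zeb2 cKO hearts Col6a1 was the most abundant member at 23.2 ± 2.87 (SD, n = 3), and all its libraries lay above all those of the next gene, Col8a1 at 11.6 ± 6.21. Col8a1, Col6a2 (10.1 ± 2.22), Col14a1 (7.37 ± 1.06) and Col6a3 (7.21 ± 1.69) overlapped with their neighbours in this order. A gap followed, and Col16a1 (1.62 ± 0.515), Col12a1 (0.947 ± 0.746) and Col8a2 (0.871 ± 0.248) overlapped again. In WT hearts the order was Col6a1, Col8a1, Col14a1, Col6a2, Col6a3, Col8a2, Col16a1 and Col12a1, from 29.2 ± 11.9 to 2.68 ± 2.97 (SD, n = 3), and no neighbours were separated. The places of Col14a1 above Col6a2 and of Col8a2 above Col16a1 rested on WT 2, since each held in 1 of the 3 WT libraries. The Zeb2 cKO order depended on the length used. With the longest transcript, the Zeb2 cKO means were 24.8 for Col6a1, 17.8 for Col8a1 and 17.05 for Col6a2. Col6a3 (8.54) then passed Col14a1 (8.01). Col8a1 in Zeb2 cKO 3 then lay above the Col6a1 levels of the Zeb2 cKO libraries, so Col6a1 was no longer separated.

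The make-up of the group differed in WT 2. Of the summed level of the 8 members per kilobase, the collagen VI chains made up 37.8% in WT 2 and 55.8% to 68.6% in the other 5 libraries. Col14a1 made up 20.8% in WT 2 and 9.61% to 12.5% elsewhere, and Col8a2 made up 8.46% and 1.34% to 2.24%. The whole group reached 24.5% of the summed level of the 8 fibrillar collagens in WT 2 and between 41.8% and 46.6% in the other libraries. In WT 2 the fibrillar collagens therefore stood even further above the other libraries than the non-fibrillar members did as a sum.

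Of the fibrillar collagens, which form the fibrils that collagens XII and XIV bind, 6 of the 8 tested were under -0.2 (22.6% of all genes). Their median log2 fold change was -1.31. Without WT 2, 1 of the 8 was under -0.2 (11.7% of all genes), with a median of -0.05. Adjusted p under 0.05 was reached by 0 of the 8 in edgeR, beside 1 that was lower at an unadjusted p under 0.05 (0.861% of all genes). Col11a1, the lowest of the list, was at 1.11, 48.6 and 1.69 CPM in WT, against 1.40, 1.64 and 1.82 CPM in Zeb2 cKO hearts, a log2 fold change of -3.40 ± 1.40 (SE) that was 0.21 without WT 2. Col11a2, the highest, had a log2 fold change of 0.15 ± 0.32 (SE).

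The other collagens of the same classes were sparse. Of 11 listed, 10 were in the table and 6 passed the filter on low counts, and Col21a1 was not analysed here. Adjusted p under 0.05 was reached by 0 of the 6 in edgeR, beside 0 at an unadjusted p under 0.05. Of the 6, 2 were under -0.2 (22.6% of all genes) and 3 over 0.2 (16.0%). Their median log2 fold change was 0.11. Without WT 2 it was 0.40, with 1 under -0.2 (11.7% of all genes) and 4 over 0.2 (14.1%). None of the 6 had its highest level in WT 2, in contrast to the 8 members. Col6a5, an alternative chain of collagen VI, had the highest log2 fold change of this list, 1.40 ± 0.65 (SE), and 1.94 without WT 2. It was at 1.22, 2.30 and 0.729 CPM in WT, against 7.13, 2.67 and 1.45 CPM in Zeb2 cKO hearts, so that Zeb2 cKO 1, the library lowest in most members, was highest here and the groups overlapped. Col9a3, a chain of the cartilage collagen IX, had the lowest, -0.38 ± 0.49 (SE), at 5 to 12 counts per library. Col6a6, the other alternative chain that was tested, was at 6.16, 6.20 and 3.78 CPM in WT, against 10.6, 8.13 and 5.16 CPM in Zeb2 cKO hearts (log2 fold change 0.56 ± 0.31, SE).

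Among 15 receptors and binding proteins of these collagens, 9 were under -0.2 (22.6% of all genes) and 1 was over 0.2 (16.0%), with a median of -0.30. Without WT 2, 1 was under -0.2 (11.7% of all genes) and 4 were over 0.2 (14.1%), with a median of 0.06. Adjusted p under 0.05 was reached by 0 of the 15 in edgeR, beside 0 at an unadjusted p under 0.05. Fmod, the proteoglycan fibromodulin, was at 3.19, 55.0 and 3.46 CPM in WT, against 2.94, 3.57 and 5.90 CPM in Zeb2 cKO hearts, a log2 fold change of -2.31 ± 1.12 (SE) that was 0.32 without WT 2. Antxr1 and Antxr2 encode receptors that bind collagen VI. Antxr1 had a log2 fold change of -1.12 ± 0.62 (SE) and Antxr2 one of 0.27 ± 0.19 (SE), the highest of the list. WT 2 held the highest Antxr1 level, 74.8 CPM against 14.0 to 18.2 CPM elsewhere, and the lowest Antxr2 level, 48.1 CPM against 65.5 to 85.7 CPM. Antxr1 was chosen for this comparison after its values were seen.

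Marker genes of cell types moved with WT 2 as well. The summed level of 10 fibroblast markers was 1566 CPM in WT 2 and 831 to 1059 CPM in the other libraries, and that of 10 myofibroblast markers was 1640 CPM against 225 to 589 CPM. The 10 macrophage markers summed to 502 CPM in WT 2 and to 154 to 208 CPM elsewhere. The 10 endothelial markers were at 459 CPM in WT 2 and 588 to 699.9 CPM elsewhere, the smooth muscle and pericyte markers at 698 CPM and 940.2 to 1066 CPM, and the cardiomyocyte markers at 33710 CPM and 55160 to 67120 CPM. Of each list, all 10 genes were tested and 0 were without counts. WT 2 was the highest library for 9 of the fibroblast, 10 of the myofibroblast and 9 of the macrophage markers, and the lowest for 9 of the cardiomyocyte markers. The endothelial and the smooth muscle and pericyte lists were mixed. WT 2 was lowest for 7 and highest for 2 of the endothelial markers, and lowest for 6 and highest for 2 of the smooth muscle and pericyte markers. In none of these lists did a gene reach an adjusted p under 0.05 in edgeR, beside 2 myofibroblast markers, Lox and Ltbp2, at an unadjusted p under 0.05. The part of the cell make-up of the samples in the collagen differences was not tested.

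**Figure D4:**
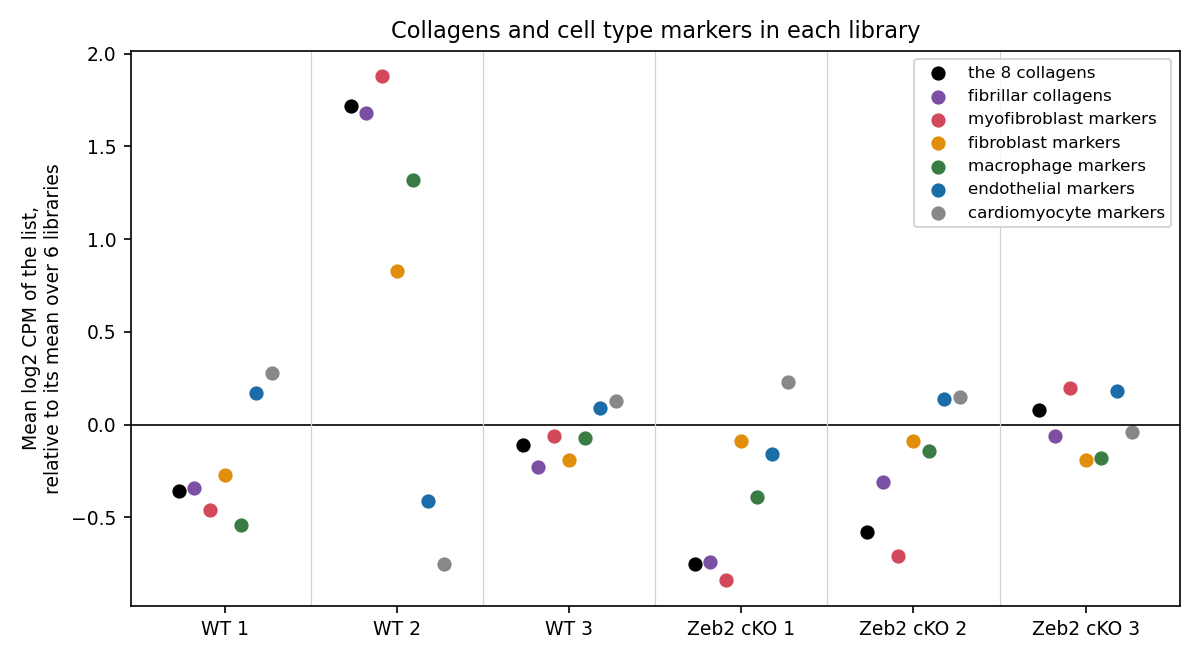
Mean log2 CPM of the genes of each list in each library, relative to the mean of that list over the 6 libraries. In WT 2 the 8 collagens (1.72), the fibrillar collagens (1.68) and the myofibroblast markers (1.88) are high and the cardiomyocyte markers (-0.75) low, and in Zeb2 cKO 3 the collagens (0.08) and myofibroblast markers (0.20) lie above the fibroblast markers (-0.19).

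Within these lists, the genes at the ends of the range were as follows. Among fibroblast markers the log2 fold change ran from -1.0 for Mfap5, a microfibril protein, to 0.59 for Scara5, and among myofibroblast markers from -2.58 for Cthrc1 to -0.25 for Loxl2, a collagen crosslinking enzyme. Macrophage markers ran from -1.21 for Fcgr1 to -0.09 for Mertk, endothelial markers from -0.27 for Cldn5 to 0.27 for Kdr, smooth muscle and pericyte markers from -0.40 for Tagln to 0.36 for Acta2, and cardiomyocyte markers from -0.04 for Actn2 to 0.31 for Ryr2. The medians were -0.42 for fibroblast, -1.13 for myofibroblast, -0.79 for macrophage, 0.15 for endothelial, 0.24 for smooth muscle and 0.17 for cardiomyocyte markers. Without WT 2 they were 0.14, -0.10, -0.02, -0.01, 0.07 and -0.10. Of the genes named here, Cthrc1 (0.15), Loxl2 (0.03), Fcgr1 (0.12), Tagln (0.06) and Ryr2 (-0.04) then had the opposite sign.

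Set against the mean of the fibroblast markers in the same library, the members parted. Relative to this mean, on the log2 scale, WT 2 differed from the average of WT 1 and WT 3 by -0.12 for Col6a1, -0.07 for Col6a2 and -0.21 for Col6a3. The rise of collagen VI in WT 2 was thus close to that of the fibroblast markers, and slightly smaller in each chain. For the other members WT 2 remained above the other WT libraries, by 0.85 for Col8a1, 0.89 for Col16a1, 1.51 for Col14a1, 1.61 for Col12a1 and 2.70 for Col8a2. Set against the myofibroblast markers instead, the same difference was between -1.28 and -1.15 for the collagen VI chains, -0.22 for Col8a1 and -0.19 for Col16a1, and 0.43, 0.53 and 1.62 for Col14a1, Col12a1 and Col8a2.

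Among the Zeb2 cKO libraries, all 8 members stood highest against the fibroblast mean in Zeb2 cKO 3. Col6a3 stood 1.97 above that mean there, against 1.33 and 1.32 in Zeb2 cKO 1 and Zeb2 cKO 2, and Col14a1 1.09 above it, against 0.59 and 0.76. Col8a1 stood 2.39 above the fibroblast mean on the log2 scale, against 1.05 and 1.09 in Zeb2 cKO 1 and Zeb2 cKO 2, and Col12a1 stood at -0.02 against -1.97 and -1.86. Between the genotypes, the members relative to the fibroblast mean differed by -0.02 for Col6a1 and 0.04 for Col6a3 at the one end and by -1.56 for Col8a2 at the other, where the SD of the WT libraries was 1.58.

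The genes most like the mean profile of the 8 members, by Pearson r of log2 CPM over the 6 libraries among 13042 protein-coding genes, were Fat1, an atypical cadherin (r = 0.999), Dpysl2, Lox, the collagen-crosslinking enzyme lysyl oxidase, Col5a2 and Pik3cd, with the lowest r, 0.9977, for Pik3cd. WT 2 dominates such a correlation, and Fat1 was at 244 CPM there against 76.3 to 109 CPM elsewhere. Over the 5 libraries without WT 2 the 5 most alike were Itga5, Postn, Mpzl1, Shroom3 and Mapre1 (r of 0.996 to 0.999). Postn, the matricellular protein periostin, was at 226 and 322 CPM in WT 1 and WT 3, and at 138, 181 and 418 CPM in Zeb2 cKO 1, 2 and 3. Shroom3 was at 10.8 CPM in WT 2, its lowest level, although it followed the members elsewhere. With 5 or 6 points from shared libraries these values describe likeness and carry no test.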

How the data were processed

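RNA was sequenced from heart tissue of 3 WT and 3 Zeb2 cKO mice. The authors prepared stranded libraries after removal of ribosomal RNA, aligned the reads to GRCm38 and counted them per Gencode M4 gene with the STAR workflow. They deposited raw counts without normalization. The STAR version, the strand option and the handling of multi-mapping reads are not given in the sources used here. All 6 columns matched a sample.

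Symbols, places and exon lengths came from Gencode M21 by gene identifier, and 14573 of 14746 tested genes had a symbol. Counts were filtered with filterByExpr, normalised with TMM and tested with glmQLFit and glmQLFTest in edgeR 4.0.16 (R 4.3.3), with genotype as the factor and Benjamini-Hochberg adjustment over all genes kept. A prior count of 0.125 entered the fold changes, and standard errors are the coefficient divided by the root of the F statistic. DESeq2 1.42.0 was an alternative. Likeness used log2 CPM with a prior count of 2. The labels do not say that replicates were separate litters or days. For the members, at 151 or more counts in every library, the spread between mice rather than counting error sets the precision. For sparse genes such as Col9a3, at 5 to 12 counts per library, counting error limits it too. Steps were tested on simulated data. A search with blastn 2.17.0 found 0 bases of the members' longest transcripts that were shared with another gene (minimum length 75 bases, minimum identity 95%). Alternatives were other normalization, filters, dispersions, prior count and lengths, DESeq2, a replicate block and each library left out.

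Named genes were the 8 members, Zeb2, the lowest and the highest tested gene of each other list, and the 5 genes most like the members with and without WT 2. Exceptions are named as such or belong to counts of 5 or fewer. Members and lists were chosen with earlier results of these data known.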

Additional observations from a re-analysis of the deposited data

How the results depend on the processing

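Of 104 log2 fold changes of single members under 13 alternatives, 101 were below 0, and the 3 that were reversed all left out WT 2, at 0.06 for Col6a1, 0.10 for Col6a3 and 0.05 for Col14a1. With 1 library left out in turn, these genes ranged from -0.51 to 0.06, -0.45 to 0.10 and -1.76 to 0.05. Leaving out each library in turn gave 3 to 8 members under -0.2, a median of the members between -1.59 and -0.04, and 0 to 6 members whose Zeb2 cKO libraries all lay below the WT libraries. The 3 members under -0.2 and the median of -0.04 were without WT 2, and the count of 6 was without Zeb2 cKO 3. The difference of the log2 ratio of Col6a1 to Col6a3 lay between -0.17 and 0.05 with 1 library left out. DESeq2 called 2 genes higher in Zeb2 cKO hearts against 0 in edgeR, neither of them a member, beside 361 genes at an unadjusted p under 0.05. In every edgeR alternative 0 genes had an adjusted p under 0.05. At an unadjusted p under 0.05 there were 122 of 15009 genes (without Zeb2 cKO 1) to 1134 of 15075 (without WT 1). These included 0 and 4 of the 8 members. The same replicate numbers occur in both groups, and the deviations of same-numbered libraries from their group means correlated at 0.0878, -0.137 and -0.0869 for numbers 1, 2 and 3, so the numbers were not taken as pairs. With the replicate block the median of the members was -0.86, with 0 of them at an unadjusted p under 0.05, and 0 genes at an adjusted p under 0.05 beside 247 at an unadjusted one. The cause of these shifts was not tested. The 3 mice per group and the distance of WT 2 from the others limit every comparison.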
